A study of Mus musculus with 18 samples.

Results

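RNA of wild-type mouse brain at E18.5 (embryonic day, near birth) was compared here with RNA of wild-type primary mouse embryonic fibroblasts. The comparison used 6 of the series' 18 arrays, the 3 titled brain control and the 3 titled MEF control, and covered 17091 genes with 1 probe set each. The remaining arrays, of embryonic stem cells and of cyclin C (Ccnc) knockout samples of all 3 kinds, took no part in the test. Both groups had the same genotype, without the Ccnc deletion, and no treatment was named for either. The labels name brain with no region, and give no strain, sex, litter or pooling. The sources used here do not give the embryonic day, passage or medium of the fibroblasts. The arrays of a group were called biological replicates, and whether each came from its own embryo was not stated.

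The late embryonic brain holds newly made neurons that extend axons and build their first synapses, beside radial glia, which are the dividing stem cells of the tissue, and the first glial, vascular and meningeal cells. Primary embryonic fibroblasts are mesenchymal cells grown on plastic from minced embryos. They divide in culture, spread on the dish through focal adhesions and actin stress fibres, and secrete collagen and other matrix. A neuron keeps most of its identity through transcription factors, splicing factors and chromatin subunits that replace the versions used by other cells, and several such pairs are described below.

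The signals are log2 values after robust multi-array averaging, and a log2 difference of 1 is a 2-fold difference. Differences are brain minus fibroblasts, so a positive value is higher in brain. Arrays correlated at 0.989 to 0.995 with each other within brain and at 0.997 to 0.998 within fibroblasts, but only at 0.781 to 0.796 between brain and fibroblasts, across genes. The median SD of a gene over 3 arrays was 0.117 in brain and 0.0644 in fibroblasts. For the Actb control probe sets, the 3′ signal minus the 5′ signal averaged 0.21 in brain and 0.090 in fibroblasts, and that of Gapdh averaged 0.15 in brain and -0.035 in fibroblasts. All 3 brain arrays lay above all fibroblast arrays in both (exact permutation p = 0.1 each, 2-sided, the smallest that 3 against 3 arrays allow). The part of this difference in the results was not tested. The files used here hold no detection calls, so that a dim signal was not separated from background, and a difference can understate the change of a gene that is dim in 1 group. In whole tissue, fewer cells of a type and less RNA per cell cannot be told apart, and tissue, culture and any batch that went with either cannot be told apart in this design.

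Most genes differed. At a limma adjusted p under 0.05, 4672 genes were higher in brain (27.3% of those tested) and 6859 were lower (40.1%). The median difference over all genes was -0.11, and 7057 of the called genes differed by less than 2-fold. With a 2-fold threshold added, 2031 genes were higher in brain (11.9%) and 2443 were lower (14.3%). All brain arrays lay above all fibroblast arrays for 4988 genes (29.2%) and below them for 7462 (43.7%). The direction of small differences depended on the scaling: 40.5% of all calls were higher in brain with the deposited values and 50.8% after cyclic loess, which moved the median difference by 0.10. Counts of list members below are therefore read against 27.3% higher and 40.1% lower, and large differences carry the description.

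**Figure D1:**
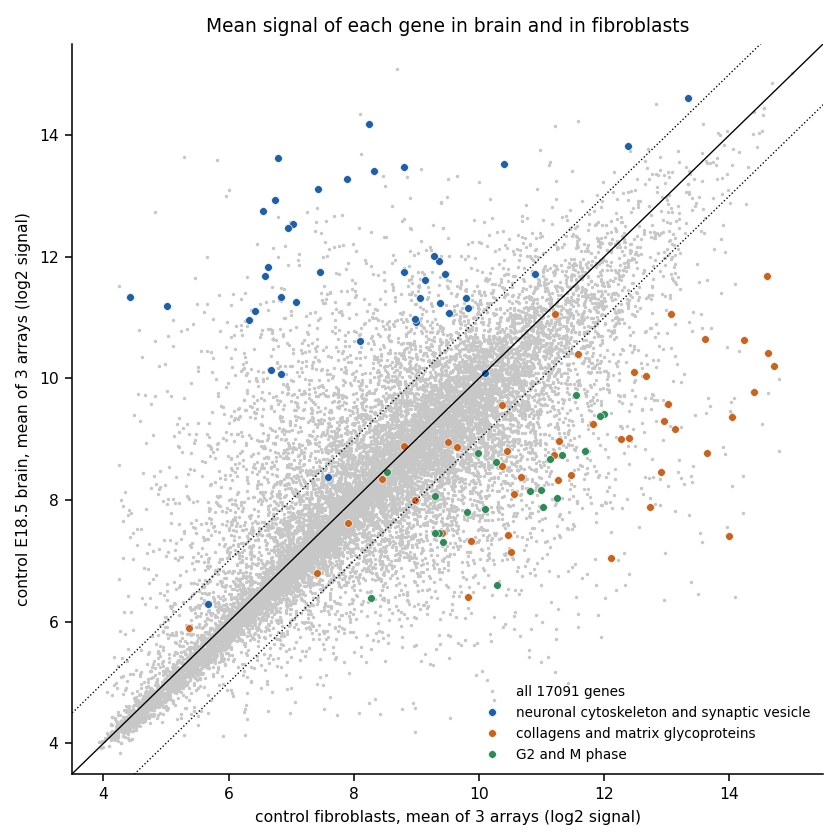
Mean log2 signal of each of the 17091 genes in control brain (vertical axis) against control fibroblasts (horizontal axis), 3 arrays each. Neuronal cytoskeleton and synaptic vesicle genes (blue) lie mostly above the upper dotted line, which marks a 2-fold difference, and collagens, matrix glycoproteins (orange) and G2 and M phase genes (green) mostly below the lower one; the solid line marks equality.

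The gene that differed most was Ttr, which encodes transthyretin, the carrier of thyroid hormone and retinol that the choroid plexus secretes. Its log2 signal was 13.48, 13.61 and 13.84 on the brain arrays, against 5.32, 5.26 and 5.29 on the fibroblast arrays. The groups were far apart (log2 difference 8.35, SE 0.095, limma adjusted p = 1.72e-10), a 327-fold difference in signal. Next came Gpm6a, a membrane glycoprotein of growing neurites, with 12.62, 12.51 and 13.09 on the brain arrays, against 5.01, 4.71 and 4.76 on the fibroblast arrays (log2 difference 7.91, SE 0.15, limma adjusted p = 7.22e-10), and Fabp7, the fatty acid-binding protein of radial glia, with 13.42, 13.44 and 13.94 on the brain arrays, against 5.49, 6.04 and 5.91 on the fibroblast arrays (log2 difference 7.78, SE 0.17, limma adjusted p = 1.34e-09). The largest differences were taken only among called genes whose brain and fibroblast arrays did not overlap. The transcription factor gene Neurod6, which marks excitatory neurons of the cortex, had 11.37, 11.06 and 12.15 on the brain arrays, against 4.19, 4.35 and 4.21 on the fibroblast arrays (log2 difference 7.27, SE 0.23, limma adjusted p = 9.20e-09); its brain arrays spread over about 1 unit, with array 3 highest. The others among the 15 largest increases were Ly6h (7.08), Bex1 (7.04), the fusion protein gene Snap25 (6.92), the tubulin-binding Stmn3 (6.85), the imprinted Nnat (6.41), the Notch-related receptor gene Dner (6.34), the endosomal Nsg2 (6.25), the vesicle-priming factor Cadps (6.23), the neurofilament gene Nefl (6.20), the neuronal catenin Ctnna2 (6.19) and the internexin gene Ina (6.18). Here and below, a single value in parentheses after a gene is its log2 difference.

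At the other end stood S100a6, a small calcium-binding protein gene, with 5.85, 6.52 and 6.83 on the brain arrays, against 14.07, 14.07 and 14.14 on the fibroblast arrays (log2 difference -7.69, SE 0.21, limma adjusted p = 3.44e-09). Its relative S100a4, named for its activity in motile fibroblasts, had 6.46, 6.46 and 6.45 on the brain arrays, against 13.51, 13.53 and 13.46 on the fibroblast arrays (log2 difference -7.04, SE 0.062, limma adjusted p = 8.94e-11). The fibroblast arrays lay within 0.1 of each other for both genes, and the brain arrays of S100a6 spread over about 1 unit. Ptgs2, the inducible cyclooxygenase of prostaglandin synthesis, had 4.83, 4.82 and 4.86 on the brain arrays, against 11.62, 11.83 and 11.70 on the fibroblast arrays (log2 difference -6.88, SE 0.077, limma adjusted p = 1.72e-10). The hyaluronan receptor gene Cd44 (-6.73), the galectin Lgals3 (-6.59), the matrix glycoprotein Thbs1 (-6.59), the annexin Anxa1 (-6.43) and the p53-induced death gene Pmaip1 (-6.43) followed by log2 difference. The 15 largest decreases also held Ccn2 (-6.41), the protease inhibitor Timp1 (-6.07), Filip1l (-6.20), Phf11d (-6.04), the secreted phosphoprotein Spp1 (-5.99) and the actin-severing Gsn (-5.84).

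**Figure D2:**
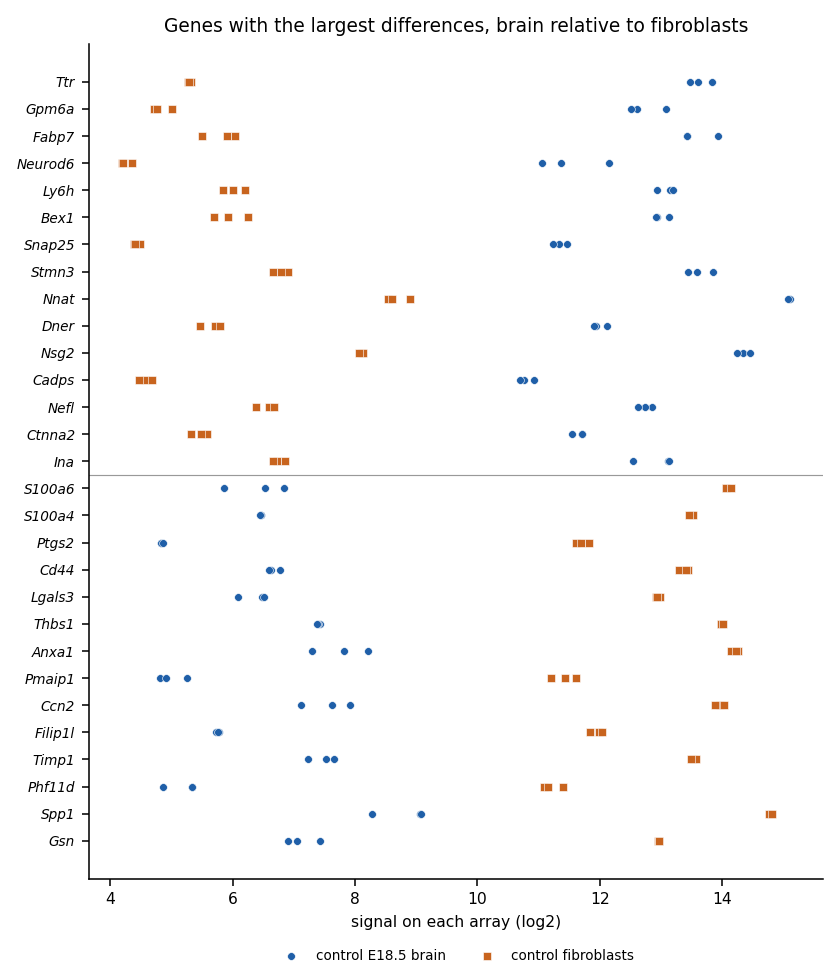
Log2 signal on each of the 6 arrays (horizontal axis) for the 15 genes with the largest positive difference (above the line) and 14 of the 15 with the largest negative difference (below it), brain as circles and fibroblasts as squares. Ttr lies between 13.48 and 13.84 in brain and between 5.26 and 5.32 in fibroblasts. Only called genes without overlap between the groups were eligible.

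The genes of axons and the neuronal cytoskeleton rose as a body in brain: 19 of 20 measured members were higher and none was lower, and the median log2 difference was 5.09, against -0.11 over all genes. Stmn2, a growth cone protein gene, had 14.17, 14.12 and 14.26 on the brain arrays, against 8.26, 8.15 and 8.31 on the fibroblast arrays (log2 difference 5.94, SE 0.074, limma adjusted p = 1.72e-10). Tubb3, the beta-tubulin that defines neurons, had 13.25, 13.21 and 13.39 on the brain arrays, against 8.05, 7.92 and 7.71 on the fibroblast arrays, and the tau gene Mapt had 13.16, 13.22 and 12.95 on the brain arrays, against 7.42, 7.41 and 7.46 on the fibroblast arrays. In each of the 3 genes every brain array was more than 5 units above every fibroblast array. Map2 of dendrites (5.54), Dcx of migrating neurons (5.51), the kinesin Kif5c (5.21) and the neurofilament gene Nefm (5.10) rose as strongly, while Kif1a (1.93), Dpysl3 (1.43) and Basp1 (1.28) rose less. The exception was the kinesin light chain gene Klc1, which many cells use, at 10.15, 10.08 and 10.04 on the brain arrays, against 10.06, 10.12 and 10.11 on the fibroblast arrays (log2 difference -0.0033, SE 0.065, limma adjusted p = 0.968). Its probe sets disagreed: the probe set brightest on these 6 arrays gave a log2 difference of 1.98, called higher, and Klc1 was also called higher after quantile normalization (0.17) or cyclic loess (0.21).

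Synaptic genes rose with them. All 21 measured genes of synaptic vesicles and release were higher (median 2.52). Snap25, whose product forms the fusion complex with syntaxin and synaptobrevin, had 11.33, 11.46 and 11.23 on the brain arrays, against 4.39, 4.48 and 4.40 on the fibroblast arrays (log2 difference 6.92, SE 0.082, limma adjusted p = 1.72e-10). The calcium sensor Syt4 (6.18), the vesicular glutamate transporter Slc17a6 (4.69), Rab3c (4.62) and synaptophysin Syp (4.51) differed by more than 4 units. The second vesicular glutamate transporter, Slc17a7, which becomes the main form in the mature cortex, differed by 0.80 (limma adjusted p = 0.000201). Among neurotransmitter receptors and postsynaptic genes 19 of 20 were higher and 1 was lower (median 2.40). The metabotropic glutamate receptor Grm5 (5.74) and the AMPA receptor subunit Gria1 (4.19) led. Camk2b was 3.70 higher, and its partner Camk2a, a kinase subunit of mature synapses, 0.37 higher (limma adjusted p = 0.00141). The scaffold gene Shank1 was lower (log2 difference -0.52, SE 0.14, limma adjusted p = 0.00818).

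Of 16 ion channel and pump genes, 15 were higher and none lower (median 2.17). Sodium channel genes led, with Scn3a, the fetal form, at 10.46, 10.60 and 10.78 on the brain arrays, against 4.86, 4.70 and 4.90 on the fibroblast arrays (log2 difference 5.79, SE 0.10, limma adjusted p = 5.31e-10), Scn2a at a log2 difference of 4.64 and the auxiliary subunit Scn3b at 4.08. The chloride exporter gene Slc12a5, whose rise turns GABA inhibitory during maturation, differed by 2.94. All 16 measured neural adhesion genes were higher (median 3.26), from Chl1 (4.81), Cntn1 (4.59) and L1cam (3.80), which guide axons, to Cdh10 (1.18).

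The transcription factors of excitatory neurons showed the same direction, with 18 of 19 higher and 1 lower (median 2.27). After Neurod6 the largest differences were those of Myt1l, a repressor of non-neuronal genes (4.79), Sox11 (4.47), Neurod1 (3.52) and Bcl11a (3.34). The cortical layer genes Bcl11b of deep layers (2.94) and Tbr1 (2.73) rose. Eomes, the factor of intermediate progenitors, rose by 1.85. Foxp1 was the lower one (log2 difference -0.28, SE 0.079, limma adjusted p = 0.0117), a call lost after quantile normalization or cyclic loess, with the stem cell control arrays in the fit (limma adjusted p = 0.0968) and without fibroblast array 1 (0.0583) or 3 (0.0503). Interneuron genes were higher in 14 of 14 cases (median 1.75). Gad1, which makes GABA, had 11.41, 11.24 and 11.25 on the brain arrays, against 6.34, 6.29 and 5.96 on the fibroblast arrays (log2 difference 5.10, SE 0.11, limma adjusted p = 1.20e-09). The transporter Slc32a1 (3.35), the peptide gene Sst (3.31) and Dlx1 (3.25), a factor of the ganglionic eminences where interneurons are born, followed, and Dlx6 (0.68) and the receptor gene Erbb4 (0.70) differed least.

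Radial glia and progenitor genes were mixed: 13 of 16 were higher and 3 lower (median 1.54). Sox2, which maintains neural stem cells, had 11.21, 11.02 and 11.54 on the brain arrays, against 6.19, 6.98 and 6.61 on the fibroblast arrays (log2 difference 4.66, SE 0.20, limma adjusted p = 5.19e-08), and Slc1a3 (3.74), Id4 (3.54) and the Notch target Hes5 (2.41) rose. The 3 lower members are ones that fibroblasts also use. Vim, the intermediate filament gene of mesenchyme and radial glia, had 11.52, 11.43 and 11.72 on the brain arrays, against 14.12, 14.04 and 14.09 on the fibroblast arrays (log2 difference -2.53, SE 0.088, limma adjusted p = 1.54e-08). Hes1 differed by -1.96 and the filament gene Nes by -0.36 (limma adjusted p = 0.00119), a call lost after cyclic loess (-0.16). The brain and fibroblast arrays did not overlap for any of them.

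Glial genes were higher in part. Of 14 astrocyte genes 10 were higher, 1 was lower and 3 were not called (median 1.81). Aldoc (4.31), Sparcl1 (3.99) and Apoe (3.78) rose, whereas Gfap, the filament gene of mature astrocytes, had 6.78, 7.47 and 7.45 on the brain arrays, against 6.87, 6.82 and 6.86 on the fibroblast arrays and overlapping groups (limma adjusted p = 0.0714); without brain array 1 it was called higher (log2 difference 0.61, limma adjusted p = 0.00023), as it was with all arrays after median centring or cyclic loess, with array weights or with a replicate block (limma adjusted p = 0.0344 to 0.0491). The gap junction gene Gja1 was lower (-2.34). Among 14 oligodendrocyte lineage genes 8 were higher, 1 lower and 5 not called (median 0.43). Olig1, the early factor of the lineage, had 11.09, 11.45 and 11.12 on the brain arrays, against 5.56, 5.47 and 5.44 on the fibroblast arrays (log2 difference 5.73, SE 0.10, limma adjusted p = 6.44e-10), and Olig2 and Nkx2-2 differed by 3.07 and 2.80. Of the myelin genes, Mbp rose by 0.71, while Mog (0.023), Mag (0.065), Mobp (-0.11) and Cnp (0.13) were not called, Cnp being called higher after quantile normalization or cyclic loess and Mag without brain array 3. Cspg4, which marks oligodendrocyte precursors and also pericytes and mesenchyme, was lower (-2.06). Of 13 microglial genes 7 were higher, 1 of them at least 2-fold, and 2 were lower, both at least 2-fold (median 0.38). Their mean was 7.58, 7.69 and 7.89 on the brain arrays, against 7.86, 7.595 and 7.54 on the fibroblast arrays. The complement gene C1qa led (log2 difference 1.16, SE 0.24, limma adjusted p = 0.00198), and Tmem119, a marker of adult microglia that fibroblasts and bone cells also express, was -3.02.

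Genes of vessels, choroid plexus and meninges were in part higher in brain. Among 13 endothelial genes 11 were higher and 2 lower (median 0.74), led by the thyroid hormone transporter Slco1c1 (3.40) and the tight junction gene Cldn5 of the blood-brain barrier, which had 9.43, 9.72 and 9.63 on the brain arrays, against 6.23, 6.45 and 6.53 on the fibroblast arrays (log2 difference 3.19, SE 0.11, limma adjusted p = 1.17e-08). The 2 lower endothelial genes were each at least 2-fold lower, the lowest at -1.85. Of 9 pericyte genes 6 were higher and 3 lower, with Vtn at 2.43, Rgs5 at 1.88 and Pdgfrb, which fibroblasts share, at -3.34. Besides Ttr, 6 of the 9 other choroid plexus genes were higher, among them Otx2 (3.91) and Igfbp2 (2.97), and the water channel gene Aqp1 was lower (-2.65). Of 10 meningeal genes 6 were higher and 3 lower (median 0.37). The 3 lower ones were each at least 2-fold lower, the lowest at -2.44. Ptgds, the prostaglandin D synthase of the arachnoid, had 9.45, 11.55 and 12.004 on the brain arrays, against 6.89, 6.76 and 7.02 on the fibroblast arrays (log2 difference 4.11, SE 0.54, limma adjusted p = 0.000124), with brain array 1 lowest and array 3 highest.

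The 3 brain arrays differed from each other for some genes of red cells, meninges and skin, and for growth hormone. Whether such tissue came with the brain was not tested. Genes were counted where 1 brain array lay more than 1 unit from the mean of the other 2. The other 2 had to lie within 0.5 of each other. Array 3 lay above for 21 genes and below for 9, array 1 for 9 and 4, and array 2 for 2 and 2. Alas2, the haem synthesis enzyme of red cell precursors, had 9.08, 8.78 and 10.64 on the brain arrays, against 6.41, 6.69 and 6.57 on the fibroblast arrays (log2 difference 2.94, SE 0.40, limma adjusted p = 0.000155), and the embryonic globin gene Hbb-y had 6.79, 5.22 and 7.40 on the brain arrays, against 4.94, 4.96 and 4.83 on the fibroblast arrays. Array 3 was highest for both. Of the 7 red cell genes measured 4 were higher, 1 lower and 2 not called. Genes of the meninges and vessel walls formed a further list, added after these values were seen. Its mean was 8.28, 8.75 and 9.50 on brain arrays 1, 2 and 3, against 9.56 to 9.62 on the fibroblast arrays. Of its 12 genes 5 were higher in brain and 7 lower (median -1.24). Dcn, Ogn, Mrc1 and Cldn11 of that list were each highest on brain array 3, and Cldn11 is also in the oligodendrocyte lineage list. Array 1 carried more signal of cornified epidermis genes, whose list mean was 8.18 there, 7.15 and 7.20 on the other brain arrays and 6.91 to 6.93 on the fibroblast arrays. Lor, the loricrin of the outer skin, had 9.57, 7.81 and 7.24 on the brain arrays, against 5.88, 5.88 and 5.87 on the fibroblast arrays, and Krt1 had 10.62, 9.29 and 9.26 on the brain arrays, against 7.75, 7.62 and 7.64 on the fibroblast arrays. Both were called higher in brain, with log2 differences of 2.33 and 2.05. Of the 12 epidermis genes measured 4 were higher, 2 lower and 6 not called, against 27.3% higher and 40.1% lower over all genes. Gh, growth hormone, stood alone on array 2, with 6.93, 11.07 and 7.45 on the brain arrays, against 7.17, 7.23 and 7.39 on the fibroblast arrays, and was not called (limma adjusted p = 0.253); the 11 pituitary genes had 0 higher calls. Lists for epidermis and pituitary were also added after the values were seen, and the part of these tissues in the results was not tested.

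The sex-linked genes differed between arrays of 1 group. Xist, transcribed from the inactive X chromosome, had 12.25, 12.39 and 12.34 on the brain arrays, against 8.46, 11.75 and 11.85 on the fibroblast arrays, and the Y-linked Ddx3y had 7.80, 7.93 and 8.57 on the brain arrays, against 10.11, 5.12 and 5.16 on the fibroblast arrays. Fibroblast array 1 was low in Xist and high in Ddx3y, the other fibroblast arrays were high in Xist and low in Ddx3y, and the brain arrays had high Xist beside intermediate Ddx3y. With the deposited values of all 6 arrays none of the 5 sex-linked genes measured was called, and all 5 were called higher in brain without fibroblast array 1. Xist was called higher after quantile normalization, with a replicate block and without any 1 fibroblast array, its log2 difference being 1.64 with all arrays, 0.53 without fibroblast array 1, and 2.18 and 2.22 without arrays 2 and 3. That of Ddx3y was 1.30 with all arrays and 2.96 without fibroblast array 1, and 0.46 and 0.48 without arrays 2 and 3.

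Factors that pattern the forebrain and the more caudal brain were both higher in part. Of 10 forebrain patterning genes 8 were higher and 1 lower (median 0.85), and Nr2f1, which sets cortical areas, had 11.17, 11.15 and 11.41 on the brain arrays, against 7.57, 7.52 and 7.42 on the fibroblast arrays (log2 difference 3.74, SE 0.09, limma adjusted p = 1.92e-09). Lhx2 (3.25) and Zbtb20 (2.45) rose, Emx1 was not called (0.14; called higher after quantile normalization or cyclic loess) and Emx2 was lower (-0.87). Of 16 genes of midbrain, hindbrain and cerebellum 9 were higher and 3 lower (median 0.35). Zic1 (3.82), Tcf7l2 (2.02), Gbx2 (1.89) and En2 (1.71) led, and En1, which limb ectoderm and dermis also express, was lower (-1.42).

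**Figure D3:**
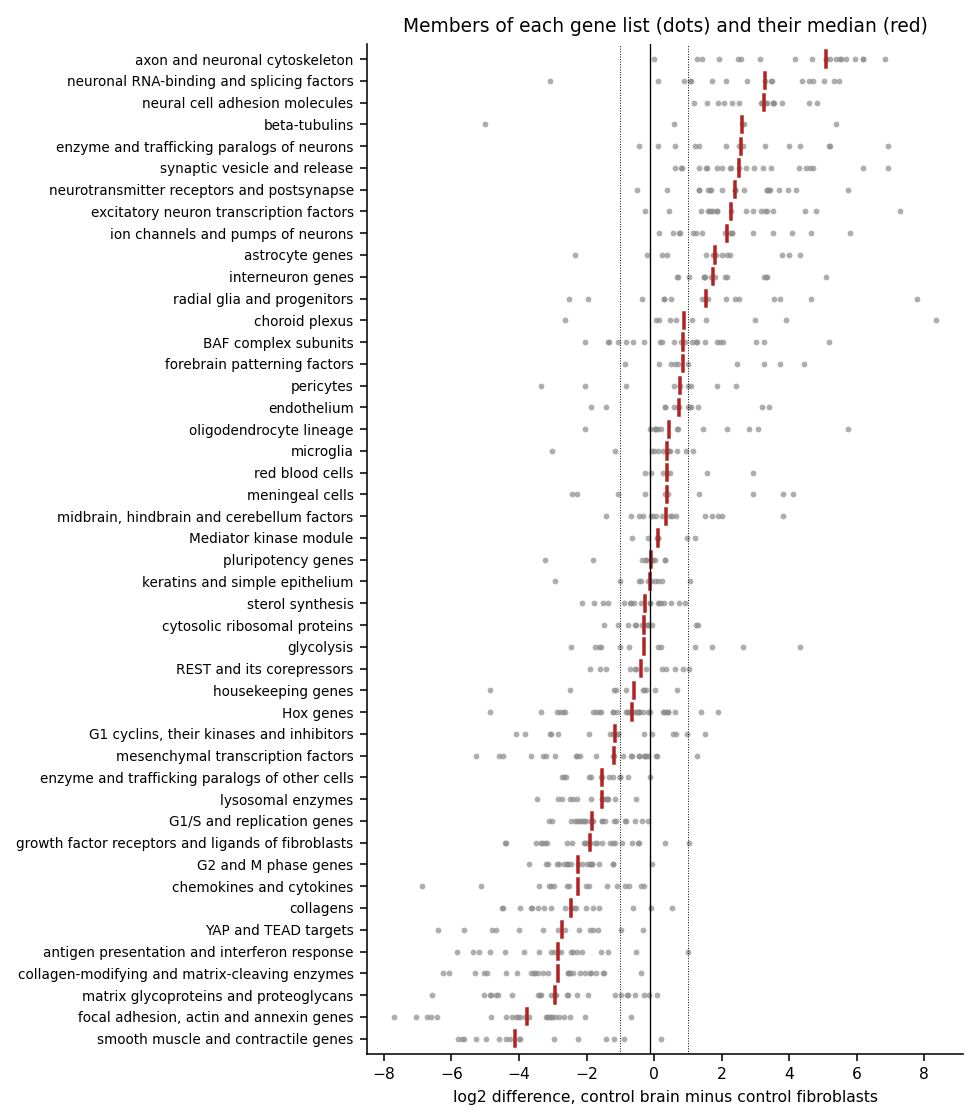
Log2 difference, control brain minus control fibroblasts, of every measured member (dots) of 46 gene lists, ordered by the list median (red bars). The solid line marks the median of all genes (-0.11) and the dotted lines a 2-fold difference; axon and cytoskeleton genes have a median of 5.09 and contractile genes one of -4.13.

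Neurons express RNA-binding proteins that other cells lack, and these rose together: 15 of 17 were higher and 1 was lower (median 3.28). Celf5 had 12.79, 12.95 and 12.49 on the brain arrays, against 7.19, 7.32 and 7.25 on the fibroblast arrays (log2 difference 5.49, SE 0.11, limma adjusted p = 9.35e-10) and Elavl4, an RNA stabiliser of the Hu family, had 11.49, 11.20 and 11.48 on the brain arrays, against 6.04, 6.05 and 6.13 on the fibroblast arrays (log2 difference 5.32, SE 0.093, limma adjusted p = 5.41e-10). Elavl2 (5.04), Elavl3 (4.70), Rbfox1 (4.59), Celf4 (4.37), Nova1 (3.51) and Rbfox3, the NeuN antigen (3.46), also rose. Rbfox2, which is broadly expressed, was not called (0.12) but was called higher after quantile normalization (0.28) or cyclic loess (0.32), and Mbnl2 was lower, with 8.39, 8.67 and 8.64 on the brain arrays, against 11.55, 11.69 and 11.72 on the fibroblast arrays (log2 difference -3.09, SE 0.093, limma adjusted p = 6.25e-09). The polypyrimidine tract proteins moved in opposite directions. Ptbp2, the neural form, had 11.91, 11.67 and 12.11 on the brain arrays, against 8.58, 8.66 and 8.60 on the fibroblast arrays (log2 difference 3.28, SE 0.11, limma adjusted p = 9.46e-09), and Ptbp1, which represses neuronal exons in other cells, had 10.75, 10.80 and 10.78 on the brain arrays, against 13.44, 13.39 and 13.35 on the fibroblast arrays (log2 difference -2.62, SE 0.065, limma adjusted p = 2.35e-09). The groups overlapped for neither gene.

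MicroRNAs act on several of these genes: miR-124 lowers Ptbp1 and miR-9 lowers Rest and Hes1 in developing neurons. Mature miRNAs were not measured here, but transcripts that host their hairpins were, and the following were chosen after their values were seen. Mir124-2hg had 10.73, 10.61 and 10.74 on the brain arrays, against 5.12, 4.77 and 5.20 on the fibroblast arrays (log2 difference 5.66, SE 0.11, limma adjusted p = 8.44e-10). Mir9-3hg had 7.84, 7.73 and 7.56 on the brain arrays, against 6.47, 6.22 and 6.32 on the fibroblast arrays (log2 difference 1.37, SE 0.099, limma adjusted p = 1.81e-06) and Mir100hg, which holds miR-100 and miR-125b, had 12.16, 12.07 and 12.05 on the brain arrays, against 10.62, 10.49 and 10.55 on the fibroblast arrays (log2 difference 1.55, SE 0.07, limma adjusted p = 7.48e-08). Mir22hg went the other way, with 7.54, 8.04 and 8.02 on the brain arrays, against 10.09, 10.04 and 9.77 on the fibroblast arrays (log2 difference -2.10, SE 0.14, limma adjusted p = 1.32e-06). The mature sequences from RefSeq whose hairpins lie in these hosts (GRCm38.p6, plus strand) are shown with the seed, bases 2 to 8, in capitals, because the seed sets which transcripts a miRNA pairs with; the 4 seeds differ from one another.
mmu-miR-9-5p: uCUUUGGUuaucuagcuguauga
mmu-miR-100-5p: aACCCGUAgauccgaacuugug
mmu-miR-125b-5p: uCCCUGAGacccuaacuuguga
mmu-miR-22-3p: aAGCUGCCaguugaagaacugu

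REST is a repressor that keeps neuronal genes silent in non-neuronal cells by binding the RE1 element with its corepressors. Rest had 6.95, 6.96 and 7.24 on the brain arrays, against 8.91, 8.94 and 8.96 on the fibroblast arrays (log2 difference -1.88, SE 0.093, limma adjusted p = 1.38e-07), and all brain arrays lay below all fibroblast arrays. Of the 12 genes of REST and its partners 5 were higher and 7 lower (median -0.39). The phosphatase genes Ctdsp2 (-1.62) and Ctdsp1 (-1.44), whose products assist REST, fell too, and the corepressors Rcor1 (-0.56), Sin3b (-0.71) and Sin3a (-0.23) were lower, the call of Sin3a being lost under 8 alternatives, among them each of the 3 other scalings, the replicate block and leaving out any 1 fibroblast array or brain array 3 (limma adjusted p = 0.0526 to 0.262). Rcor2 (1.03), which replaces Rcor1 in neural progenitors, the demethylase gene Kdm1a (0.85) and the deacetylase gene Hdac2 (0.63) were higher. The left part of RE1, TTCAGCACC, was found on either strand in 0.496% of the 13502 genes with a promoter window, 0.963% of those at least 2-fold higher in brain and 0.311% of those at least 2-fold lower. The windows run 250 bases before to 50 after the start of a gene, from RefSeq. The left part was also in 1 of 20 Hox genes with a window, a list mostly lower in brain. The right part, GGACAGCG, was in 2.18% of genes with a window. It was in 2.76% of those at least 2-fold higher and 1.76% of those at least 2-fold lower. Among the synaptic lists, Syn1 and Nlgn1 held the left part, shown in capitals. Syn1 is the synapsin gene whose RE1 is a textbook example (chrX:20921112-20921168, minus strand, log2 difference 2.27), and Nlgn1 follows (chr3:26154101-26154169, minus strand, 3.43). Only the left part is marked, and a whole RE1 was not searched for.
Syn1: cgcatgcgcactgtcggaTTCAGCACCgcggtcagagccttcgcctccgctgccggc
Nlgn1: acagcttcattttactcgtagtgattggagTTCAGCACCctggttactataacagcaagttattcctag
A match in letters is a description and does not show that a factor was bound, here and for the promoters below. In all, 12 motifs were searched, and those shown were chosen after the values were seen.

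The BAF complex moves nucleosomes, and neurons assemble it with other subunits than dividing cells. Of 22 measured subunit genes 15 were higher and 7 lower (median 0.86). Actl6b, the neuronal BAF53b, had 11.33, 11.23 and 11.06 on the brain arrays, against 6.20, 5.90 and 6.02 on the fibroblast arrays (log2 difference 5.17, SE 0.10, limma adjusted p = 7.96e-10), while Actl6a, the BAF53a of progenitors and other cells, had 9.15, 9.02 and 9.35 on the brain arrays, against 10.44, 10.57 and 10.48 on the fibroblast arrays (log2 difference -1.32, SE 0.093, limma adjusted p = 1.56e-06). Ss18l1, the neuronal CREST, had 11.16, 11.14 and 10.88 on the brain arrays, against 7.77, 7.84 and 7.81 on the fibroblast arrays, and its counterpart Ss18 had 9.13, 8.79 and 8.81 on the brain arrays, against 10.24, 10.28 and 10.28 on the fibroblast arrays. The log2 differences were 3.25 and -1.36. For both pairs the neuronal form was above and the other form below in brain, without overlap. Dpf1, of the neuronal complex, rose by 1.87 and Phf10, its progenitor counterpart, differed by -1.06. Smarcd3 (3.01) rose and Smarcd2 (-2.03) was lower. The core subunit Smarcb1 (0.19), a call lost under 7 alternatives, and the ATPase gene Smarca4 (0.58) differed little, and the other ATPase gene, Smarca2, rose by 1.94.

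**Figure D4:**
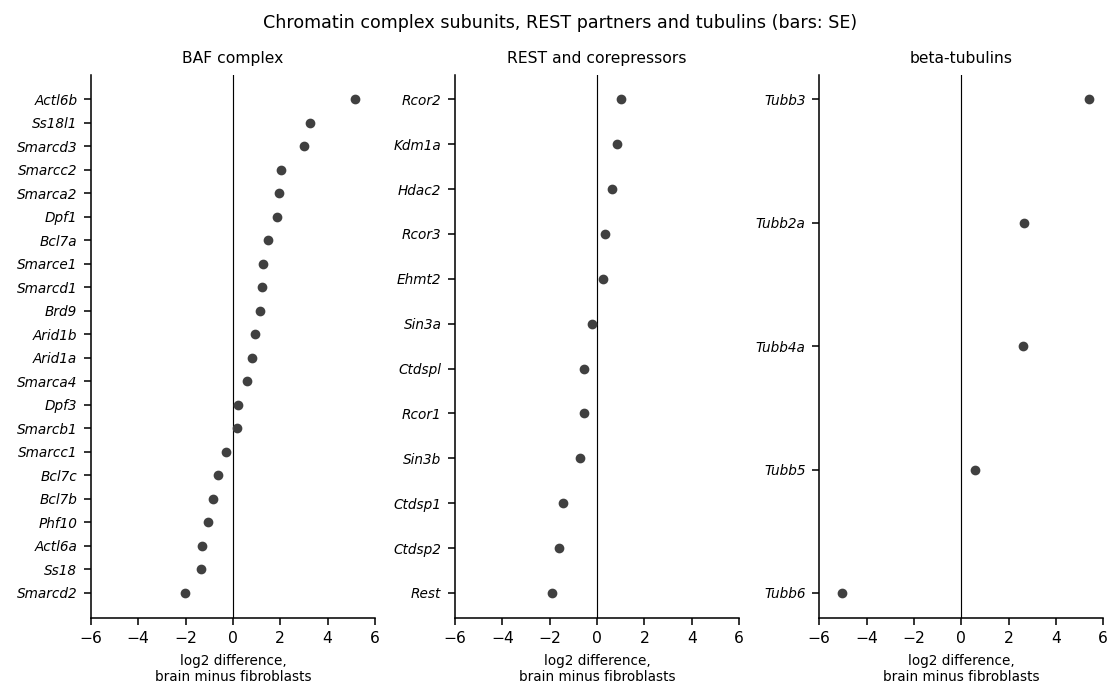
Log2 difference, control brain minus control fibroblasts (horizontal axis), of each measured gene of the BAF complex, of REST and its partners and of the beta-tubulins, with SE bars of the limma fit that are mostly shorter than the points. Actl6b lies at 5.17 and Actl6a at -1.32; Rest lies at -1.88; Tubb3 lies at 5.39 and Tubb6 at -5.02.

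Structural and metabolic paralogues of other families also moved in opposite directions. Among the beta-tubulins, Tubb3 (5.39), Tubb2a (2.66) and Tubb4a (2.60) rose and Tubb5, the general form, differed by 0.60. Tubb6 had 8.18, 8.02 and 8.58 on the brain arrays, against 13.27, 13.38 and 13.19 on the fibroblast arrays (log2 difference -5.02, SE 0.13, limma adjusted p = 3.40e-09), the reverse of Tubb3. Of 14 enzyme and trafficking genes known as the neuronal member of a family, 12 were higher and 1 lower (median 2.58). Of 13 counterparts used by other cells, 12 were lower and none higher (median -1.55). The lists were made for this contrast, so their directions are a description. Snap23, which does in most cells what Snap25 does in neurons, had 7.52, 7.12 and 7.36 on the brain arrays, against 9.92, 10.09 and 9.997 on the fibroblast arrays (log2 difference -2.67, SE 0.11, limma adjusted p = 3.42e-08). Synaptobrevin Vamp2 (2.52) stood against Vamp8 (-2.72), and the kinesin Kif5c (5.21) against Kif5b (-0.76). In glycolysis, Aldoc (4.31) and the enolase Eno2 (2.63) rose, while Aldoa (-1.58), the pyruvate kinase gene Pkm (-1.63) and the hexokinase gene Hk2 (-2.46) were lower.

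Genes of the fibroblast matrix were lower in brain almost throughout. Of 19 collagen genes 17 were lower and 1 higher (median -2.47). Col1a1, the main chain of type I collagen, had 10.85, 9.74 and 10.01 on the brain arrays, against 14.68, 14.76 and 14.69 on the fibroblast arrays (log2 difference -4.51, SE 0.24, limma adjusted p = 2.25e-07). Col5a1 (-4.46), Col5a2 (-3.96), Col6a3 (-3.66), Col1a2 (-3.60) and Col3a1 (-3.43) fell likewise. Col8a2 was the higher one at 0.52 (limma adjusted p = 0.049). That call was lost without any 1 fibroblast array (0.0939 to 0.109) and without the intensity trend in the fit (0.0504). Col15a1 was not called (-0.098). Of 26 matrix glycoprotein and proteoglycan genes 23 were lower and none higher (median -2.92). Fibronectin, Fn1, had 10.26, 10.48 and 10.52 on the brain arrays, against 14.61, 14.62 and 14.63 on the fibroblast arrays (log2 difference -4.20, SE 0.083, limma adjusted p = 8.40e-10). The thrombospondin genes Thbs1 (-6.59) and Thbs2 (-5.05), Fbln2 (-4.87), fibrillin Fbn1 (-4.84), periostin Postn (-4.68) and biglycan Bgn (-4.61) fell most. Elastin, Eln (0.08), was not called with the deposited values but was higher after cyclic loess (0.21), and decorin, Dcn, had 9.99, 10.13 and 11.11 on the brain arrays, against 11.67, 11.59 and 11.48 on the fibroblast arrays (log2 difference -1.17, SE 0.25, limma adjusted p = 0.00272), with brain array 3 closest to fibroblasts. All 26 genes of collagen-modifying and matrix-cleaving enzymes and their inhibitors were lower (median -2.85), among them the collagen C-proteinase enhancer Pcolce (-5.31), the crosslinking oxidases Lox (-5.03) and Loxl2 (-4.95), and the protease genes Mmp3 (-4.39) and Mmp2 (-3.52). Plau differed least (-0.39).

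Contractile genes and adhesion genes had the lowest medians of the 47 lists. Of 16 smooth muscle and contractile genes 15 were lower and none higher (median -4.13). Tagln, the SM22 actin-binding protein, had 8.11, 8.26 and 8.32 on the brain arrays, against 14.10, 14.13 and 13.90 on the fibroblast arrays (log2 difference -5.82, SE 0.088, limma adjusted p = 3.48e-10), and the smooth muscle actin gene Acta2 had 9.10, 8.98 and 9.66 on the brain arrays, against 14.60, 14.53 and 14.46 on the fibroblast arrays (log2 difference -5.28, SE 0.16, limma adjusted p = 6.08e-09). Actg2 (-5.68), calponin Cnn1 (-5.62), the myosin light chain Myl9 (-4.97) and tropomyosin Tpm1 (-4.60) fell with them, and Csrp2 was not called (0.21) and was called higher after quantile normalization or cyclic loess. All 24 focal adhesion, actin and annexin genes were lower (median -3.76). After S100a6, S100a4, Cd44, Lgals3 and Anxa1 came Lgals1 (-4.82), Anxa3 (-4.40) and Anxa5 (-4.20). Pxn, paxillin, differed least (-0.67). Many contractile genes are driven by serum response factor through the CArG box. This motif was found in 1.63% of genes with a promoter window. The share was 1.48% for those at least 2-fold higher in brain and 2.59% for those at least 2-fold lower. It was in 2 of 13 neural adhesion genes with a window, which were higher in brain. It was also in 2 of 12 contractile and 2 of 20 focal adhesion genes with a window. It is in capitals in 3 of these, Cnn2 (chr10:79988514-79988583, plus strand, log2 difference -4.39), Myl9 (chr2:156775273-156775342, plus strand, -4.97) and the vinculin gene Vcl (chr14:20929148-20929210, plus strand, -4.04).
Cnn2: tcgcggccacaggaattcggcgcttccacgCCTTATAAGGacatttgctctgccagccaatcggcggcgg
Myl9: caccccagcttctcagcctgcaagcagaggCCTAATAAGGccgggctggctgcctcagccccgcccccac
Vcl: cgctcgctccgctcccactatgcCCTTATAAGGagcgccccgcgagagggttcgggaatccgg

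YAP and its DNA-binding partner TEAD drive a gene programme in spread, adherent cells. All 14 measured genes of this list, which holds the pathway's targets and some of its own members, were lower in brain (median -2.74). Ccn2, connective tissue growth factor, had 7.11, 7.62 and 7.92 on the brain arrays, against 13.97, 14.03 and 13.88 on the fibroblast arrays (log2 difference -6.41, SE 0.18, limma adjusted p = 3.85e-09), and its relative Ccn1 had 6.94, 6.92 and 6.48 on the brain arrays, against 12.45, 12.40 and 12.35 on the fibroblast arrays (log2 difference -5.62, SE 0.12, limma adjusted p = 1.18e-09). The groups were more than 5 units apart for each. Axl (-4.79), the coagulation receptor F3 (-4.67) and Ankrd1 (-4.01) fell strongly, and the pathway's own Yap1 (-2.63), Wwtr1, which encodes TAZ (-1.89), and Tead1 (-1.80) were lower as well. Crim1 differed least (-0.32), and its call was lost after quantile normalization (-0.19) or cyclic loess (-0.16), with the stem cell control arrays in the fit and without brain array 1 or fibroblast array 2 or 3 (limma adjusted p = 0.0509 to 0.222). The TEAD site GGAATG was found on either strand in 15.6% of genes with a window. The share was 16.9% for those at least 2-fold higher in brain and 17.3% for those at least 2-fold lower. Of genes with a window, 9 of 12 of this list and 6 of 12 contractile genes held it. So did 4 of 8 neuronal enzyme and trafficking genes, which were mostly higher in brain. Ccn1 (chr3:145650053-145650118, minus strand), Ankrd1 (chr19:36120019-36120084, minus strand) and Ajuba (chr14:54577812-54577877, minus strand, log2 difference -2.84) are shown with the site, or its reverse complement, in capitals; Ajuba held it at 2 places.
Ccn1: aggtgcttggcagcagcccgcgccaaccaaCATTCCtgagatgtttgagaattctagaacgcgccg
Ankrd1: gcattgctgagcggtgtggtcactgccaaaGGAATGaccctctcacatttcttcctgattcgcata
Ajuba: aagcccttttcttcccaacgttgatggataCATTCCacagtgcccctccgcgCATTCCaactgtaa

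Mesenchymal transcription factors were lower in 21 of 25 cases, higher in 1 and not called in 3 (median -1.19). Snai2, which promotes the mesenchymal state, had 6.55, 6.50 and 6.76 on the brain arrays, against 11.85, 11.92 and 11.86 on the fibroblast arrays (log2 difference -5.27, SE 0.084, limma adjusted p = 3.81e-10), and Twist1 had 5.86, 5.57 and 6.30 on the brain arrays, against 10.40, 10.40 and 10.35 on the fibroblast arrays (log2 difference -4.47, SE 0.16, limma adjusted p = 1.69e-08). Prrx1 (-4.59) and Prrx2 (-3.28) of limb mesenchyme, Twist2 (-3.65), Snai1 (-3.21) and Tbx15 (-2.95) were lower too. The relative Zeb2, which neurons and glia also use, was the higher one, with 9.24, 9.26 and 9.30 on the brain arrays, against 7.96, 8.03 and 7.96 on the fibroblast arrays (log2 difference 1.28, SE 0.066, limma adjusted p = 1.89e-07), and Zeb1 was not called (0.05), but was called higher after quantile normalization (0.24) or cyclic loess (0.28). Of 25 growth factors, receptors and binding proteins of fibroblasts 23 were lower and 2 higher (median -1.89). Igfbp7 (-4.41), the BMP antagonist Grem1 (-4.39), the receptor genes Tgfbr2 (-3.49) and Pdgfrb (-3.34) and the ligand Tgfb1 (-3.32) fell. Tgfbr1 (1.04) and Igf1 (0.32) were higher. Igf1 lost its call without fibroblast array 2 (limma adjusted p = 0.0863) or 3 (0.0962) and with the stem cell control arrays in the fit (0.0635).

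Hox genes mark position along the body axis, with genes of low paralogue number active up to the hindbrain and genes of high number active in the trunk and limbs. Of 15 measured Hox genes numbered 1 to 5, 6 were higher in brain, 5 lower and 4 not called (median 0.25). Of 20 numbered 6 to 13, none was higher, 18 were lower and 2 were not called (median -1.40). Hoxc8 had 5.11, 5.49 and 4.98 on the brain arrays, against 10.04, 10.10 and 9.998 on the fibroblast arrays (log2 difference -4.85, SE 0.13, limma adjusted p = 2.85e-09), and Hoxa10 (-3.36), Hoxd10 (-2.87), Hoxc10 (-2.80) and Hoxd8 (-2.70) followed. On the other side, Hoxb5 had 9.26, 9.22 and 7.68 on the brain arrays, against 6.79, 6.82 and 6.86 on the fibroblast arrays (log2 difference 1.90, SE 0.36, limma adjusted p = 0.00132) and Hoxa5 had 10.68, 10.49 and 9.70 on the brain arrays, against 8.92, 8.87 and 8.89 on the fibroblast arrays (log2 difference 1.39, SE 0.21, limma adjusted p = 0.000334). Brain array 3 was lowest for both and arrays 1 and 2 were close together.

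**Figure D5:**
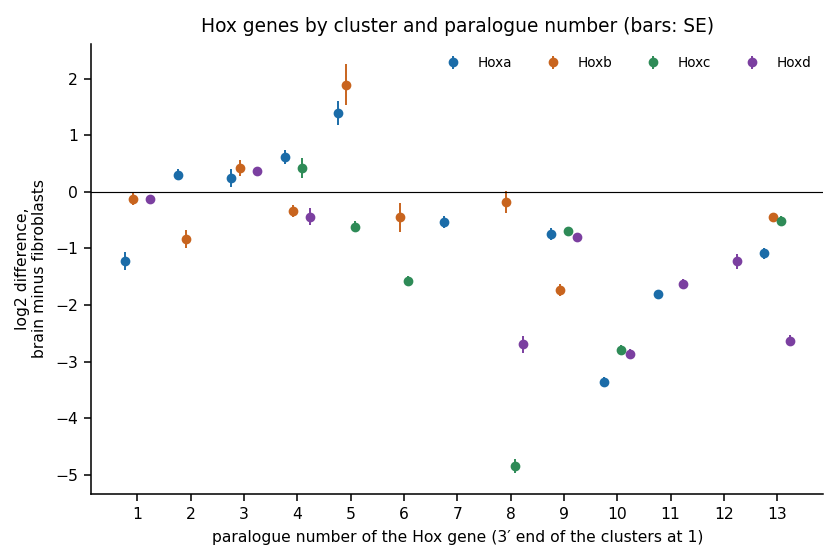
Log2 difference, control brain minus control fibroblasts (vertical axis), of 35 Hox genes by paralogue number (horizontal axis), coloured by cluster, with SE bars of the limma fit. No gene numbered 6 to 13 lies above 0; Hoxb5 lies highest at 1.90 and Hoxc8 lowest at -4.85.

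Chemokines, cytokines and the enzymes of prostaglandin synthesis were lower in 16 of 16 cases (median -2.26). After Ptgs2 the largest differences were those of the neutrophil attractant Cxcl5 (-5.12), the monocyte attractants Ccl2 (-3.42) and Ccl7 (-3.12) and Il6 (-2.95), and those of Il33 (-0.28) and Il11 (-0.38) were smallest. The call of Il33 was lost after cyclic loess, with the stem cell control arrays in the fit and without brain array 1 or 2 or fibroblast array 1 or 2 (limma adjusted p = 0.0549 to 0.107), and that of Il11 with the stem cell control arrays (0.0645). Genes of antigen presentation and the interferon response were lower in 18 of 19 cases and higher in 1 (median -2.83). B2m, the invariant chain of class I molecules, had 9.55, 9.47 and 10.26 on the brain arrays, against 14.59, 14.65 and 14.61 on the fibroblast arrays (log2 difference -4.86, SE 0.18, limma adjusted p = 2.33e-08), and Ifit1, an interferon-induced antiviral gene, had 5.98, 5.93 and 5.74 on the brain arrays, against 11.02, 11.13 and 11.55 on the fibroblast arrays (log2 difference -5.35, SE 0.14, limma adjusted p = 2.64e-09). Fibroblast array 3 was highest for Ifit1 and brain array 3 was closest to the fibroblasts for B2m. Ifitm3 (-5.82), Bst2 (-5.20), Isg15 (-4.41) and the class I gene H2-K1 (-3.85) fell, and Ifitm1 was higher (log2 difference 0.99, SE 0.15, limma adjusted p = 0.000299). H2-K1 and its relatives are near-identical to each other, and cross-hybridisation among them was not tested. The core of the interferon-stimulated response element, TTTC followed by any 2 bases and TTTC, was found on either strand in 3.58% of genes with a window. The share was 3.66% for those at least 2-fold higher in brain and 6.06% for those at least 2-fold lower. The core was found in 6 of 16 genes of this list with a window and in 4 of 17 of the matrix glycoprotein list. It is shown in capitals for B2m (chr2:122147518-122147587, plus strand) and Ifit1 (chr19:34640755-34640824, plus strand), and Ifit1 holds it at 2 places.
B2m: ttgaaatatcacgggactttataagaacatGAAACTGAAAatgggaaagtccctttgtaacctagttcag
Ifit1: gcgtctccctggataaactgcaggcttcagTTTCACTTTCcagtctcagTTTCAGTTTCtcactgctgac

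Proliferation genes were lower in brain. Of 21 genes of G2 and M phase 20 were lower and 1 was not called (median -2.25). Kif20a, a kinesin of cytokinesis, had 6.67, 6.74 and 6.40 on the brain arrays, against 10.26, 10.34 and 10.28 on the fibroblast arrays (log2 difference -3.69, SE 0.096, limma adjusted p = 2.96e-09), and Birc5 (-3.21), Aurka (-3.13), Ube2c (-2.89), Ccnb2 (-2.83) and Ccnb1 (-2.66) fell with it. Cenpf was the exception, with 8.52, 8.41 and 8.45 on the brain arrays, against 8.48, 8.48 and 8.64 on the fibroblast arrays, and its groups overlapped. Of 23 genes of G1/S and replication 22 were lower and none higher (median -1.83), from Rrm2 of nucleotide synthesis (-3.12), cyclin E1, Ccne1 (-3.02), and Gins2 (-2.47) to Rfc3 (-0.37), a call lost after cyclic loess, and Gins1, which was not called (-0.17) but was lower without brain array 3. Many G2 and M genes carry the cell cycle homology region TTTGAA near their start, through which the DREAM complex represses them in resting cells. It was found on either strand in 15.6% of all windows in 13 of 18 of this list and in 7 of 18 of the excitatory neuron factors. Cdc20 (chr4:118437344-118437391, minus strand, log2 difference -2.55), Kif11 (chr19:37376333-37376381, plus strand, -1.23), Prc1 (chr7:80294416-80294475, plus strand, -2.45) and Ube2c (chr2:164769870-164769928, plus strand) show it in capitals, in either orientation, just before the start, which lies at the right end.
Cdc20: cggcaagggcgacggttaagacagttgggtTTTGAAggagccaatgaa
Kif11: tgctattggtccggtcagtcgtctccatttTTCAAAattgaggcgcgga
Prc1: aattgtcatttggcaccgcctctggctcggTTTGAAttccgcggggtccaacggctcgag
Ube2c: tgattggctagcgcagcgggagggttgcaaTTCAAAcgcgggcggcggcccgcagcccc

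Regulators of the G1 phase split by kind. Of 16 genes 4 were higher and 11 lower (median -1.15). Cyclin D1, Ccnd1, had 9.67, 9.72 and 9.77 on the brain arrays, against 12.77, 12.81 and 12.79 on the fibroblast arrays (log2 difference -3.07, SE 0.064, limma adjusted p = 9.96e-10), and Ccnd3 (-2.85), Ccnd2 (-1.30), Cdk2 (-1.92) and Cdk4 (-1.21) were lower. The inhibitors that accumulate in cultured fibroblasts were lower as well: Cdkn2a, which encodes p16 and p19, had 5.86, 5.65 and 5.32 on the brain arrays, against 9.62, 9.89 and 9.61 on the fibroblast arrays (log2 difference -4.09, SE 0.14, limma adjusted p = 1.41e-08), Cdkn2b differed by -3.82 and the p53 target Cdkn1a by -3.04. Genes that promote cell cycle exit in development went the other way. Cdkn1c, p57, had 11.46, 11.43 and 11.95 on the brain arrays, against 10.11, 10.20 and 9.98 on the fibroblast arrays (log2 difference 1.52, SE 0.14, limma adjusted p = 8.49e-06), and Cdkn2d (0.65), Cdkn1b (0.55) and the retinoblastoma gene Rb1 (0.96) were higher.

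Lysosomal enzyme and membrane genes were lower in 15 of 15 cases (median -1.55), from Lamp2, with 8.83, 8.68 and 9.41 on the brain arrays, against 12.40, 12.50 and 12.40 on the fibroblast arrays (log2 difference -3.46, SE 0.16, limma adjusted p = 1.07e-07), and the cathepsins Ctsz (-2.84) and Ctsl (-2.74) to prosaposin Psap (-0.54), whose call was lost after quantile normalization (-0.19, limma adjusted p = 0.258) or cyclic loess (-0.27, 0.126). Sterol synthesis genes showed no common direction, with 4 of 18 higher, 9 lower and 5 not called (median -0.26), and 7 were called higher after quantile normalization or cyclic loess. Sc5d (-1.79) was lower and Hmgcs1 (0.75) was higher. Of 12 cytosolic ribosomal protein genes with a value 2 were higher and 6 lower (median -0.29), and the lower calls numbered 3 after quantile normalization and 10 without brain array 3. Actb, often used as a reference, had 15.04, 15.05 and 14.99 on the brain arrays, against 15.03, 14.98 and 15.01 on the fibroblast arrays (log2 difference 0.02, SE 0.072, limma adjusted p = 0.814); it was called lower after quantile normalization (-0.16) and higher after cyclic loess (0.30). The highest gene value of an array was 14.98 to 15.03 in fibroblasts and 15.08 to 15.11 in brain. Actb stood at or near this top. As RMA equalises distributions across arrays, the small difference of Actb there says little about its stability. B2m, Gusb (-2.48) and Hprt (-1.11) of the same list of 10 housekeeping genes were lower. Of the pluripotency genes, 6 of 11 were not called, and the most negative differences were those of Klf4 (-3.24) and Klf2 (-1.82), which fibroblasts also express.

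Ccnc, the gene that the series deletes in other samples, had 8.82, 8.65 and 9.24 on the brain arrays, against 9.56, 9.61 and 9.54 on the fibroblast arrays (log2 difference -0.66, SE 0.13, limma adjusted p = 0.00194), lower on all brain arrays, with array 3 nearest to the fibroblasts. Its partner kinases behaved differently from each other. Cdk19 had 9.88, 9.94 and 9.87 on the brain arrays, against 8.65, 8.64 and 8.81 on the fibroblast arrays (log2 difference 1.20, SE 0.073, limma adjusted p = 6.15e-07), and Cdk8 had 9.69, 9.49 and 9.50 on the brain arrays, against 9.47, 9.48 and 9.49 on the fibroblast arrays (log2 difference 0.078, SE 0.075, limma adjusted p = 0.382). Med12l rose by 0.97, while Med12 (-0.19), Med13 (0.13) and Med13l (0.11) were not called. In this module of 7 genes, 2 were higher with the deposited values and 5 after quantile normalization or cyclic loess.

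Among genes above the 90th percentile of mean signal, the 5 that differed least included Pfdn2, a subunit of the chaperone prefoldin, the ribosomal protein gene Rpl26, the cytochrome oxidase gene Cox4i1 and Dda1. Their log2 differences lay between -0.0016 and -0.0001. Pfdn2 had 10.91, 10.84 and 10.77 on the brain arrays, against 10.79, 10.88 and 10.85 on the fibroblast arrays. The groups overlapped for these 4 genes, and their SE ran from 0.064 to 0.11. Each of the 4 was called higher in brain after quantile normalization (0.20 to 0.32) or cyclic loess (0.25 to 0.28).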

How the data were processed

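RNA of 3 control E18.5 brain samples and 3 control fibroblast samples was measured on single-colour arrays that carry Affymetrix control probe sets. The labels' protocols describe oligo-dT priming followed by transcription into biotin-labelled cRNA, so the 3′ part of a transcript counts most. The deposited values are log2 signals, which the authors made with RMA (robust multi-array averaging of probe signals) according to the submitters' processing notes. The sources used here name no RMA version or chip definition and do not say which arrays entered 1 normalization. Since RMA equalises distributions across arrays, a shift common to most genes would be hidden.

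Of 24121 transcript probe sets, 22560 matched 1 symbol of the RefSeq table (GRCm38.p6) and 1561 matched none and were left out. For 3432 genes with several probe sets, the one with the highest mean over 18 arrays was used, which gave 17091 genes; 116 of them share all values with another gene and are not named. Brain was tested against fibroblasts with limma 3.58.1 under R 4.3.3 (lmFit, then eBayes with a trend on intensity), with Benjamini-Hochberg adjustment over all genes. No gene was filtered for low signal. The fit was also run on simulated arrays with independent noise, in which 100 genes changed by a log2 value of 0.5 and 100 by 1. It recovered 75% and 99% of them, with 11 false calls. Far more genes differed in the real data, a setting that the simulation did not cover. Figures were drawn with matplotlib 3.10.9. There is no read depth, and precision is limited by having 3 arrays per group.

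Same-numbered brain and fibroblast arrays correlated at 0.012, -0.079 and -0.013 in their deviations from the group means, and the main fit used no pairing. Such low values between a tissue and cultured cells cannot exclude a shared litter or batch. Alternatives were other scalings, a low-signal filter, other probe set rules, other variance models, a replicate block, a fit with the stem cell controls, a test against 2-fold and leaving out each array.

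The members and the 47 gene lists were chosen with earlier results of these data known, and 3 further lists were added after the values were seen. The rule for named genes took Ccnc, the 15 largest differences each way, up to 8 most and 4 least different members of each list, whole lists of at most 17 genes and the 5 least different bright genes. Cdc20, Dcn, Eomes, Gh, Hoxa5, Krt1, Lor, Mmp2, Mrc1, Nefm, Ogn, Phf10, Prc1, Ss18, Syn1, Tbr1, Tgfbr1, Vcl, Zeb2 and the miRNA hosts fall outside it and were named after their values were seen. Some genes that the rule takes are not reported here, but all measured members count in the list totals.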

Additional observations from a re-analysis of the deposited data

How the results depend on the processing

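The counts of genes higher and lower in brain moved by less than 1.5 times under other scalings, a low-signal filter, other probe set rules per gene and other variance models. Leaving out each array in turn gave 4268 to 4903 genes higher and 6111 to 7107 lower, and with the 2-fold threshold 1995 to 2066 higher and 2412 to 2523 lower. With the replicate number, which is not known to pair these samples, as a block, 4591 were higher and 6635 lower. Over all probe sets in place of 1 per gene, 7087 were higher and 3151 at least 2-fold higher, since more features were tested. A limma test against a 2-fold difference called 1548 higher and 1845 lower, as its construction asks for more. The share of calls that were higher was 40.5% with the deposited values, 44.5% after median centring, 46.0% after quantile normalization and 50.8% after cyclic loess, which moved the median difference by 0.045, 0.055 and 0.096.

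Of 302 named genes, 270 kept their call under all 17 alternatives, with no called difference changing sign, 12 lost their call under at least 1, 15 gained one, and 6 were called in the opposite direction under at least 1. Of the genes not called with the deposited values, 9 changed sign under at least 1 alternative without being called there. The called reversals were, by log2 difference, Klc1 with the mean of its probe sets (0.66), its other probe set (1.98), quantile normalization (0.17) and cyclic loess (0.21), and Actb after quantile normalization (-0.16). After quantile normalization and cyclic loess, Cox4i1 gave 0.32 and 0.28, Dda1 0.22 and 0.25, Pfdn2 0.20 and 0.25, and Rpl26 0.27 and 0.28. The cause was not tested. Signal over background limits the dim genes, for which no detection calls were used here.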
